A study of Saccharomyces cerevisiae with 9 samples.

Results

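Genes of glycerol metabolism and transport were followed across the 3 strains of the transcriptome experiment. They are GPD1 (YDL022W), GPD2 (YOL059W), GPP1 (YIL053W), GPP2 (YER062C), GCY1 (YOR120W), GUT1 (YHL032C), GUT2 (YIL155C), STL1 (YDR536W) and FPS1 (YLL043W), chosen by their known roles with earlier results of these data known, and they make up 9 of the 7128 gene rows in the count table. All 9 passed edgeR's filter on low counts, which kept 6338 genes. The host in every group was the diploid budding yeast strain BY4743, homozygous for deletions of HIS3, LEU2 and URA3 and heterozygous for deletions of LYS2 and MET15. Each group carried the multicopy plasmid pTOW40836, which holds URA3 and a weakly expressed LEU2 allele and so rises in copy number in medium without leucine and uracil. The vector control carried the plasmid without an insert, the EGFP strain (GFPop in the labels) expressed enhanced GFP from the TDH3 promoter, and the moxGFP strain (MOXop) expressed the cysteine-free GFP variant moxGFP from the same promoter. The cells were grown at 30 °C in SC–Leu/Ura to an OD of 1.0, and RNA from 3 biological replicates of each strain was sequenced with ERCC spike-ins added. Copy number is not fixed in this plasmid system and was not analysed here, so insert and copy number cannot be told apart.

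Yeast makes glycerol from the glycolytic intermediate dihydroxyacetone phosphate. The NAD-dependent glycerol 3-phosphate dehydrogenases Gpd1 and Gpd2 reduce it, which reoxidizes NADH, and the phosphatases Gpp1 and Gpp2 release glycerol, the main compatible solute that the cell accumulates under osmotic stress through the high-osmolarity glycerol (HOG) pathway. Glycerol is used again through the glycerol kinase Gut1 and the mitochondrial FAD-dependent glycerol 3-phosphate dehydrogenase Gut2, or through the aldo-keto reductase Gcy1, which can oxidize glycerol to dihydroxyacetone. The proton symporter Stl1 takes glycerol up, and the aquaglyceroporin Fps1 lets it out.

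Gene counts per library ran from 10643868 to 12959660 in the vector control, from 7022201 to 9569895 with EGFP and from 8941674 to 9064524 with moxGFP. In moxGFP replicate 2 ribosomal RNA took 61.2% of gene counts, against 23.01% or less in the other libraries, and this library held between 22 (GUT2; exact Poisson 95% interval 13.8 to 33.3) and 575 counts (GPP1) of a glycerol gene. The EGFP entry of the table took 11.2 to 23.8% of gene counts in the EGFP libraries and the moxGFP entry 4.11 to 31.1% in the moxGFP libraries, lowest in replicate 2, while neither passed 0.000675% in the vector control. Results of the 9 genes are also given without moxGFP replicate 2 where that changes the call or moves the fold change by more than 1.5 times. This limit applies to the fold change and not to its log2, so log2 values near 0 can shift or turn sign within it. With counts scaled by library totals alone, chi-square per degree of freedom between replicates was 43.4 or more for every pair of a group. It covers all gene rows, including those of ribosomal RNA and the GFPs, whose shares differed between replicates. It therefore does not show how counting error compares with the replicate spread of the other genes. That value is not given per gene, and single genes differed. In the vector control STL1 had an SD of 0.66 CPM around 12.2, while its 109 counts in replicate 1 had an interval of 89.5 to 131. Counting error was thus not small for STL1 there, nor for GUT1 (SD 2.52 CPM around 114, 921 to 1040 for 981 counts). GPP2 went the other way (SD 31.1 CPM around 81.1, 547 to 644 for 594 counts in replicate 3). BY4743 is a diploid, and 14 genes that a/α diploids repress (pheromone, receptor and mating genes) together had 74.8 to 100 CPM in every library, of which 7 defining genes of the mating types had 30.7 to 56.3 CPM and none was at 0. No haploid library was there to set beside these values. Of the 13 that were tested, 3 were called higher with moxGFP than in the vector control (MFA1, MF(ALPHA)1 and MF(ALPHA)2) and 3 lower (BAR1, GPA1 and FUS1). MF(ALPHA)1 went from 1.05 to 16.5 CPM on average. With EGFP, 1 was higher and 1 lower. Over all genes tested, 14.8% were called higher and 14.0% lower with moxGFP, and 7.60% and 7.76% with EGFP. The part of these mating genes in the results was not tested.

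CPM here are counts scaled to a common library size by edgeR's TMM method. Per kilobase of coding length, the genes of glycerol synthesis lay above those of its use and transport in the vector control. GPP1 had 212.5 ± 48.6 CPM per kb (SD, n = 3), GPD1 175.7 ± 16.8, GPD2 135.6 ± 20.6 and GPP2 107.7 ± 41.3, and each of these overlapped its neighbour in this order. GUT1 followed with 53.5 ± 1.18, GUT2 with 35.3 ± 6.77, GCY1 with 20.1 ± 5.23, FPS1 with 16.9 ± 3.12 and STL1 with 7.14 ± 0.386 CPM per kb (SD, n = 3). Here only GCY1 and FPS1 overlapped. With EGFP the order was GPD1 (186.7 ± 25.7), GPP1 (118.4 ± 25.5), GPP2 (78.7 ± 4.22), GCY1 (78.2 ± 21.4), GPD2 (65.1 ± 10.7), GUT2 (46.7 ± 13.8), GUT1 (32.6 ± 5.83), FPS1 (24.8 ± 6.11) and STL1 (5.43 ± 1.08), so that GCY1 stood level with GPP2. GPD1 was clear of GPP1, GPP1 of GPP2 and FPS1 of STL1 there, and the other neighbours overlapped. With moxGFP, GPP1 (199.2 ± 23.3) stood clear of all the others, GPD2 (59.7 ± 46.4), GPD1 (45.0 ± 28.0) and GPP2 (42.2 ± 7.08) overlapped, and GCY1 (20.2 ± 1.26), which the lowest libraries of GPD2 and GPD1 reached, GUT1 (16.2 ± 4.95), FPS1 (13.1 ± 1.97), GUT2 (8.12 ± 4.6) and STL1 (5.58 ± 3.59) followed, each of which overlapped the next in this order.

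**Figure D1:**
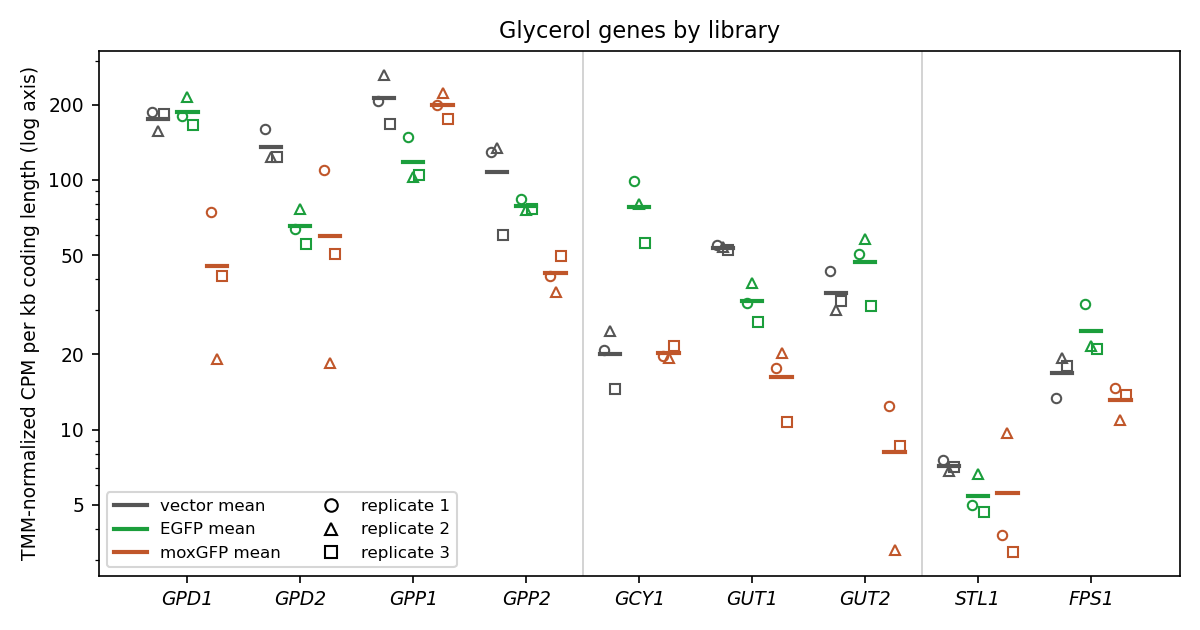
TMM-normalized CPM per kilobase of coding length (log axis) of the 9 glycerol genes in each of the 9 libraries. Open symbols are single libraries, shaped by replicate number, and bars are the means of 3 libraries; grey lines part synthesis, use and transport genes. GPD1 and GUT2 lie lower in all 3 moxGFP libraries than in the other 6, and GCY1 lies higher in all 3 EGFP libraries than in the other 6.

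The phosphatase genes GPP1 and GPP2 are close copies, which bears on how reads can be assigned to them. Their coding sequences in the RefSeq R64 reference have the same length of 753 bases and differ at 130 of them (82.7% identity), and the longest run without a difference is 26 bases. The window of 60 coding bases with the fewest differences (bases 55 to 114 from the start codon, 4 differences) shows how alike they are, with differing bases in capitals.
GPP1: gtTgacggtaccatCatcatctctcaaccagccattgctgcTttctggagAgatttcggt
GPP2: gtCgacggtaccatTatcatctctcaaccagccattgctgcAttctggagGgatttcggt
The window with the most differences (bases 336 to 395, 16 differences) shows where reads can be told apart most easily.
GPP1: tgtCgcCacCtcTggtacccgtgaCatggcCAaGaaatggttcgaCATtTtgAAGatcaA
GPP2: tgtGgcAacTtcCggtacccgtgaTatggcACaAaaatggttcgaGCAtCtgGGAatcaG
GPD1 and GPD2 were 74.6% identical over 1084 aligned bases, and GCY1 was 69.8% identical to its paralog YPR1 over 762 bases. No annotated gene of the reference overlaps any of the 9. Which strand the counting used is not given in the sources used here.

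With EGFP overexpression, GCY1 was the only glycerol gene called in the fit to all 9 libraries, and it rose about 4-fold. Of the 9 genes, 1 was called higher and 0 lower at an FDR below 0.05 in edgeR's quasi-likelihood test, where 15.4% of all genes tested were called, 7.60% higher and 7.76% lower. At an unadjusted p below 0.05, 1 was higher and 2 (GPP1 and GUT1) lower, and DESeq2's Wald test called 1 higher and 1 (GPP1) lower. The libraries of the groups did not overlap for 6 of the 9 genes, beside 45.8% of all genes tested. The median log2 fold change of the 9 genes was −0.39, and that of all genes was 0.09. Without moxGFP replicate 2, whose deviation enters the shared estimate of the spread, 1 gene was higher and 3 (GPD2, GPP1 and GUT1) were lower, where 32.0% of all genes were called.

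With moxGFP overexpression, genes at both ends of the pathway were lower than in the vector control. Of the 9 genes, 4 were called lower (GPD1, GPP2, GUT1 and GUT2) and 0 higher, where 28.8% of all genes tested were called, 14.0% lower and 14.8% higher. At an unadjusted p below 0.05, 5 were lower and 0 higher in edgeR, and DESeq2 called 5 lower and 0 higher. The groups did not overlap for 5 of the 9 genes, beside 45.3% of all genes. Their median log2 fold change was −1.18, against 0.14 over all genes. Leaving out moxGFP replicate 2 gave 5 genes lower, with STL1 added, where 37.3% of all genes were called.

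Between the overexpression strains, 5 of the 9 genes were called lower with moxGFP than with EGFP (GPD1, GUT1, GUT2, GCY1 and FPS1) and 0 higher, where 14.5% of all genes tested were called, 7.07% lower and 7.48% higher. At an unadjusted p below 0.05, 6 were lower and 1 (GPP1) higher, and DESeq2 called 5 lower and 1 (GPP1) higher. The groups did not overlap for 7 of the 9 genes, beside 35.8% of all genes. The median log2 fold change was −0.92, against 0.01 over all genes. When 1 library was left out at a time, 2 of the 9 were called without EGFP replicate 2, 3 without any 1 of the vector libraries, EGFP replicate 1 or moxGFP replicate 3, and 4 without each of the others. The 3 comparisons share libraries, so their values are set side by side and not taken as separate evidence.

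**Figure D2:**
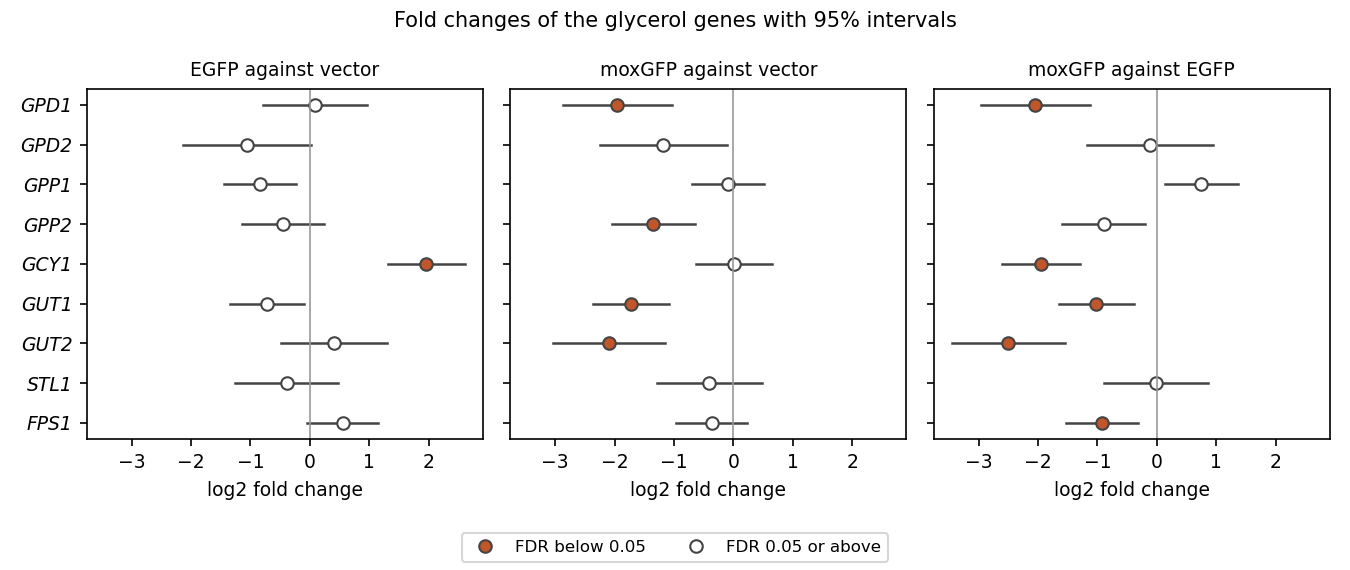
Log2 fold changes of the 9 glycerol genes (rows) in the 3 comparisons (panels), with 95% intervals from edgeR's quasi-likelihood fit to all 9 libraries. Filled points have an FDR below 0.05; GCY1 alone is filled for EGFP against vector, and GPD1, GPP2, GUT1 and GUT2 are filled for moxGFP against vector.

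Among the genes of synthesis, GPD1, the isoform known for its induction by osmotic stress, had 220.1, 184 and 216 CPM in vector replicates 1 to 3, 211, 253 and 194 CPM with EGFP, and 87.8, 22.5 and 48.5 CPM with moxGFP. All 3 moxGFP libraries lay below the other 6, and the EGFP and vector libraries overlapped. The log2 fold change of GPD1 was −1.96 for moxGFP against vector (SE, the standard error, 0.42, edgeR FDR = 0.00751) and −2.05 for moxGFP against EGFP (SE 0.42, edgeR FDR = 0.0129). For EGFP against vector it was 0.09, with a 95% interval from −0.79 to 0.97 (edgeR FDR = 0.904). The difference from EGFP was not called without EGFP replicate 2 (log2 fold change −1.93, edgeR FDR = 0.0683).
GPD2, the isoform known for its induction without oxygen, had 211, 163 and 164 CPM in the vector control, 83.8, 101 and 73.3 CPM with EGFP, and 145, 24.5 and 66.9 CPM with moxGFP. Both overexpression strains lay below the vector control in every library, and the moxGFP libraries lay on both sides of the EGFP ones. Neither difference passed the test over all 9 libraries (EGFP log2 fold change −1.06, SE 0.49, edgeR FDR = 0.167; moxGFP −1.18, SE 0.49, edgeR FDR = 0.0897). Without moxGFP replicate 2, GPD2 was lower with EGFP (log2 fold change −1.10, edgeR FDR = 0.00823), while moxGFP had −0.76 (edgeR FDR = 0.0723). Without moxGFP replicate 1 it was lower with moxGFP (log2 fold change −1.95, edgeR FDR = 0.00823).

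GPP1, the more highly expressed of the phosphatase genes here, had 155, 199 and 126 CPM in the vector control, 111, 77.1 and 79.0 CPM with EGFP, and 149.8, 168 and 133 CPM with moxGFP. The EGFP libraries lay below all the others, and those of moxGFP and the vector control overlapped. The log2 fold change was −0.84 for EGFP against vector (SE 0.28, edgeR FDR = 0.0629), −0.09 for moxGFP against vector (95% interval −0.70 to 0.51, edgeR FDR = 0.812) and 0.75 for moxGFP against EGFP (SE 0.28, edgeR FDR = 0.0837). Without moxGFP replicate 2 the EGFP difference passed the test (log2 fold change −0.89, edgeR FDR = 0.013).
GPP2, the copy known to respond to osmotic stress, had 97.3, 101 and 45.3 CPM in the vector control, 62.9, 57.1 and 57.7 CPM with EGFP, and 31.2, 26.8 and 37.4 CPM with moxGFP. The moxGFP libraries lay below the other 6, and vector replicate 3 lay below all EGFP libraries. GPP2 fell with moxGFP against vector (log2 fold change −1.35, SE 0.32, edgeR FDR = 0.0116). The call was lost without vector replicate 1 (log2 fold change −1.19, edgeR FDR = 0.0563). Against EGFP the log2 fold change was −0.89 (edgeR FDR = 0.0764), and with EGFP against vector it was −0.45 (95% interval −1.14 to 0.24, edgeR FDR = 0.362).

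The balance between the members of each pair, which does not depend on how a library is scaled, differed between the strains. Per kilobase, GPD1 to GPD2 stood at 1.17, 1.27 and 1.48 in vector replicates 1 to 3, at 2.83, 2.81 and 2.98 with EGFP and at 0.679, 1.03 and 0.816 with moxGFP. The 3 strains did not overlap, with EGFP highest and moxGFP lowest. GPP1 to GPP2 stood at 1.60, 1.97 and 2.78 in the vector control, at 1.77, 1.35 and 1.37 with EGFP and at 4.81, 6.25 and 3.54 with moxGFP. Here the moxGFP libraries lay above the other 6, which overlapped. GUT2 to GUT1, the enzymes that act in turn on glycerol and glycerol 3-phosphate, stood at 0.787, 0.562 and 0.626 in the vector control, at 1.57, 1.51 and 1.16 with EGFP and at 0.706, 0.162 and 0.806 with moxGFP. The EGFP libraries lay above the other 6, and moxGFP replicate 2, with its 22 counts of GUT2, lay far below them. These ratios are descriptions, with no test.

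**Figure D3:**
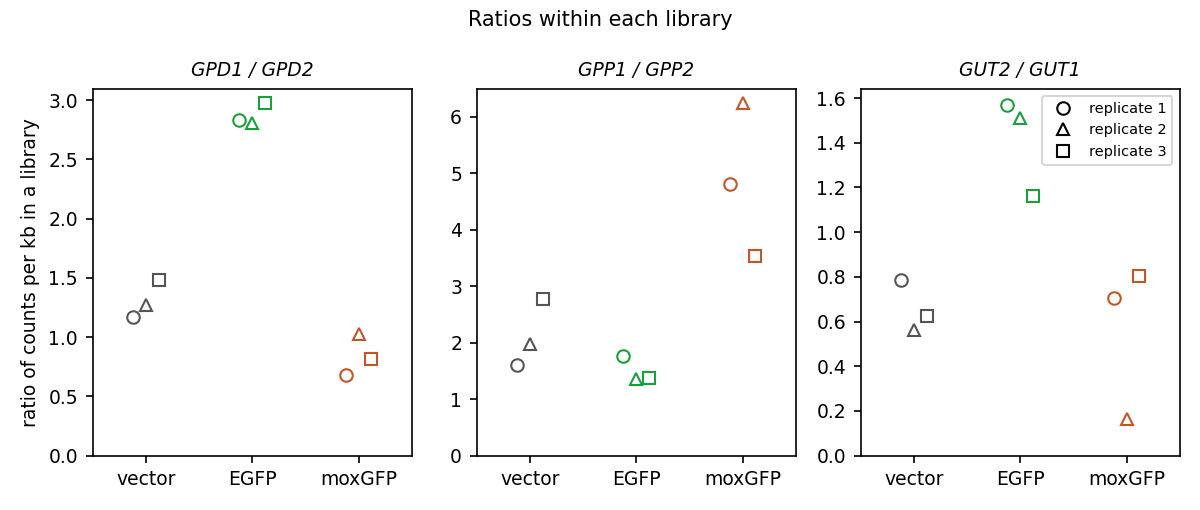
Ratio of counts per kilobase within each library for GPD1 to GPD2, GPP1 to GPP2 and GUT2 to GUT1, each panel with its own axis from 0. Symbols are single libraries; GPD1 to GPD2 lies between 2.81 and 2.98 in the EGFP libraries and at or below 1.48 in all others.

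Among the genes of glycerol use, GCY1 had 19.6, 23.4 and 13.6 CPM in the vector control, 92.5, 75.2 and 52.5 CPM with EGFP, and 18.5, 18.1 and 20.3 CPM with moxGFP. Every EGFP library lay above the other 6. GCY1 rose 3.89-fold with EGFP (log2 fold change 1.96, SE 0.30, edgeR FDR = 0.00286) and was lower with moxGFP than with EGFP (log2 fold change −1.95, SE 0.30, edgeR FDR = 0.005). With moxGFP against vector its log2 fold change was 0.01 and the 95% interval ran from −0.63 to 0.65 (edgeR FDR = 0.982). The calls of GCY1 stood in all 9 fits that left out a library, with log2 fold changes from 1.76 to 2.15 for EGFP against vector.
GUT1, the glycerol kinase gene, had 116, 114 and 111 CPM in the vector control, 68.6, 82.2 and 57.4 CPM with EGFP, and 37.6, 43.2 and 22.8 CPM with moxGFP. The 3 strains did not overlap, in the order vector, EGFP, moxGFP. GUT1 was 3.32-fold lower with moxGFP than in the vector control (log2 fold change −1.73, SE 0.29, edgeR FDR = 0.00302). Its log2 fold change was −0.72 for EGFP against vector (SE 0.28, edgeR FDR = 0.111) and −1.02 for moxGFP against EGFP (SE 0.29, edgeR FDR = 0.0385). Without moxGFP replicate 2 the EGFP difference from vector passed the test (log2 fold change −0.76, edgeR FDR = 0.0245), while the moxGFP difference from EGFP was called in 3 of the 9 fits that left out a library, those without EGFP replicate 3, moxGFP replicate 1 or moxGFP replicate 2.
GUT2 had 83.8, 58.9 and 63.8 CPM in the vector control, 98.5, 113.5 and 61.2 CPM with EGFP, and 24.3, 6.42 and 16.8 CPM with moxGFP. All moxGFP libraries lay below the other 6, and EGFP overlapped the vector control. GUT2 was 4.26-fold lower with moxGFP than in the vector control (log2 fold change −2.09, SE 0.43, edgeR FDR = 0.00658) and 5.64-fold lower than with EGFP (log2 fold change −2.50, SE 0.43, edgeR FDR = 0.00751). Both calls stood in all 9 fits that left out a library, with −1.75 and −2.11 without moxGFP replicate 2. With EGFP against vector the log2 fold change was 0.40 (95% interval −0.49 to 1.30, edgeR FDR = 0.543).

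Among the transport genes, STL1 had 12.9, 11.6 and 12.1 CPM in the vector control, 8.49, 11.4 and 7.96 CPM with EGFP, and 6.49, 16.6 and 5.54 CPM with moxGFP, on average the lowest level per kilobase of the 9 genes in every strain. In moxGFP it was replicate 2, from 57 counts, that stood above all other libraries, while every EGFP library lay below the vector control. Its log2 fold change was −0.39 for EGFP against vector (95% interval −1.26 to 0.47, edgeR FDR = 0.539) and −0.41 for moxGFP against vector (95% interval −1.29 to 0.48, edgeR FDR = 0.458). Without moxGFP replicate 2, STL1 was lower with moxGFP than in the vector control (log2 fold change −1.03, edgeR FDR = 0.0146).
FPS1 had 26.9, 39.0 and 36.0 CPM in the vector control, 64.0, 43.4 and 42.1 CPM with EGFP, and 29.5, 21.9 and 27.5 CPM with moxGFP. The EGFP libraries lay above the other 6, and moxGFP overlapped the vector control through vector replicate 1. The log2 fold change was −0.92 for moxGFP against EGFP (SE 0.27, edgeR FDR = 0.0458), a call that none of the 9 fits without 1 library made (log2 fold changes −1.03 to −0.70). It was 0.55 for EGFP against vector (95% interval −0.04 to 1.15, edgeR FDR = 0.191) and −0.36 for moxGFP against vector (95% interval −0.96 to 0.23, edgeR FDR = 0.32). Counts are shares of a library, so fewer cells with a transcript and less of it per cell cannot be told apart.

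The patterns of GPD1 and GUT2 over the libraries were much alike, although these genes act in opposite directions on glycerol 3-phosphate. Pearson's r of their log2 CPM was 0.985 over 9 libraries, where the moxGFP libraries lay apart at the low end. Over the 6 vector and EGFP libraries it was 0.828. Other pairs of the list had a higher r over those 6: GPD2 and GUT1 (0.973), STL1 and GUT1 (0.939) and GPD2 and STL1 (0.913). Over 9 libraries these had 0.603, 0.636 and −0.0985. Of the 5205 named genes tested outside the list, the same gene, GSY2 (glycogen synthase), was the most like GPD1 (r = 0.995 over 9 libraries, 0.925 over the 6 vector and EGFP libraries) and GUT2 (r = 0.994 and 0.910). The gene most like GCY1 was SLT2, the MAP kinase of the cell wall integrity pathway (r = 0.979 over 9 libraries), and the gene most like GPD2 was ERG1, squalene epoxidase (r = 0.979). GRH1 was nearest to GUT1 (r = 0.992), NAB2, an mRNA-binding protein gene, to FPS1 (r = 0.973), NGL3 to STL1 (r = 0.946), TAE1 to GPP1 (r = 0.933) and RCR1 to GPP2 (r = 0.933). Over the 6 vector and EGFP libraries r was 0.791 for RCR1 and GPP2, and 0.910 or more for the other nearest genes. These values describe the libraries, which the genes share with their normalization. The value of each nearest gene over 9 libraries is the highest of 5205.

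**Figure D4:**
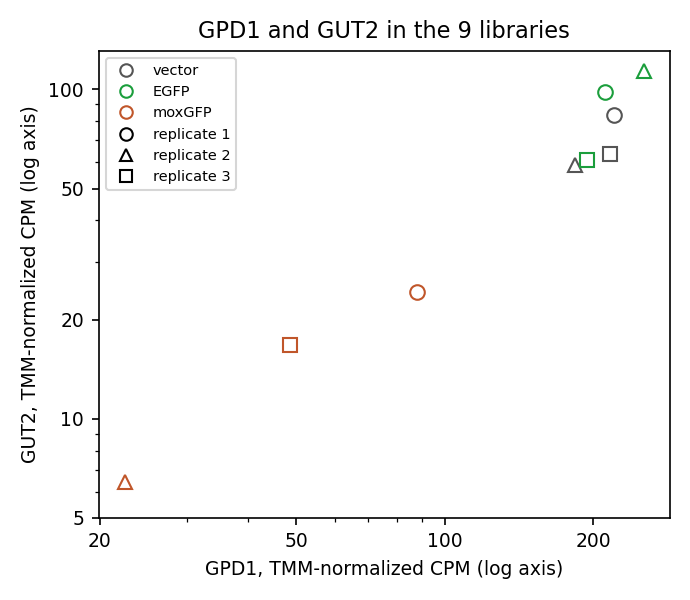
TMM-normalized CPM of GUT2 against GPD1 in the 9 libraries (both axes log), coloured by strain and shaped by replicate number. The 3 moxGFP libraries lie at the lower left, with 6.42 to 24.3 CPM of GUT2, and the vector and EGFP libraries at the upper right, with 58.9 to 113.5 CPM.

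The stress response element bound by Msn2 and Msn4 was looked for as the letters AGGGG, on both strands, in the 500 bases before each start codon in RefSeq R64. Of the 9 genes, 7 held it, all but GPP1 and FPS1, beside 34.1% of 6000 genes, and GPD1 (3 matches) and GPD2 (2 matches) held it more than once, beside 8.13% of genes. The following stretches of 30 bases, read along the gene's own strand, show the match in capitals for the genes that were called in a comparison, and the number gives how many bases before the start codon the match begins.
GPD1, 330: taaacggggcgcCCCCTgcaggccctcctg
GPD1, 286: ccttgcttctctCCCCTtccttttcttttt
GPP2, 274: tacatagctgccCCCCTaaacgggcctccc
GCY1, 284: gccttctcagaaAGGGGtagaatcaatcta
GUT1, 180: agtagcatagtgAGGGGctgactgcattga
GUT2, 157: ttcagttttggcAGGGGaaatttcacaacc
The genes with a match moved in different ways: with EGFP, GCY1 rose while GPD1 had a log2 fold change of 0.09, and with moxGFP GPD1, GPP2, GUT1 and GUT2 fell. GUT1, which Ino2 and Ino4 are known to regulate, also held the core CATGTG of the inositol-sensitive element, searched on both strands, which 13.2% of the 6000 genes held. It held 2 matches (1.37% of genes held 2 or more), and GPD2 held 1. The matches nearest to the start codon are not printed, which are this core 41 bases before it in GUT1 and AGGGG 34 bases before it in GPD1 and 14 in GPD2.
GUT1, 316: gtttttgtttttCACATGgtaaataacgac
A match is a string of letters and not a measured binding site.

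The further genes of the pathway were read from lists. The 16 neighbours of the pathway included dihydroxyacetone kinases, aldo-keto reductases, acyltransferases that use glycerol 3-phosphate, Fps1 regulators, aquaporins and external NADH dehydrogenases. Of these, 3 were higher and 2 lower with EGFP than in the vector control (median log2 fold change −0.21). Over all genes tested, 7.60% were called higher and 7.76% lower. Without moxGFP replicate 2, 5 of the 16 were higher and 3 lower, where 32% of all genes were called. In the fit to all 9 libraries, RGC1 and RGC2, whose products open Fps1, rose with log2 fold changes of 1.32 (edgeR FDR = 0.0143) and 1.23 (edgeR FDR = 0.0108). AQY3, a putative aquaglyceroporin related to Fps1, rose as well (1.03, edgeR FDR = 0.0287). GPT2, a glycerol 3-phosphate acyltransferase of lipid synthesis, fell by 2.32 on the log2 scale (edgeR FDR = 0.00148), and GUP1, named for its part in glycerol uptake and later known as an acyltransferase that remodels GPI anchors, fell by 1.85 (edgeR FDR = 0.00819).
With moxGFP, 8 of the 16 were lower than in the vector control and 0 higher (0 at an unadjusted p below 0.05 and 0 by DESeq2; median −0.87), beside 14.0% and 14.8% of all genes. GPT2 (−2.50, edgeR FDR = 0.000875) and DAK1 (−1.78, edgeR FDR = 0.00298), the dihydroxyacetone kinase that acts after Gcy1, had the smallest FDR, followed by the aldose reductase gene GRE3 (−1.50, edgeR FDR = 0.00913), AQY3 (−1.26, edgeR FDR = 0.00927) and NDE2 (−1.43, edgeR FDR = 0.016). Between the strains 7 were lower with moxGFP and 0 higher (0 at an unadjusted p below 0.05 and 0 by DESeq2; median −0.56), beside 7.07% and 7.48% of all genes, led by AQY3 (−2.29, edgeR FDR = 0.00233) and GRE3 (−2.21, edgeR FDR = 0.005).

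Of 20 genes of the HOG pathway, 6 were higher and 1 lower with EGFP than in the vector control (median log2 fold change 0.73). Over all genes tested, 7.60% were called higher and 7.76% lower. Without moxGFP replicate 2, 9 of the 20 were higher and 3 lower, where 32% of all genes were called. In the fit to all 9 libraries, STE50 (1.65, edgeR FDR = 0.00773) and OPY2 (1.72, edgeR FDR = 0.00925), of the Sho1 branch, had the smallest FDR. They were followed by the Sln1-branch response regulator gene SSK1 (1.18, edgeR FDR = 0.01), the phosphatase gene PTP2 (1.42, edgeR FDR = 0.0133) and the kinase gene SSK2 (1.19, edgeR FDR = 0.018). With moxGFP, STE50 was higher, and HOG1, the MAP kinase itself, was lower (log2 fold change −1.32, edgeR FDR = 0.00979), as was the osmosensor gene SLN1 (−1.08, edgeR FDR = 0.0421). In all, 3 of the 20 were called with moxGFP, 1 higher and 2 lower, where 28.8% of all genes were called, with a median of −0.0045. The counts were 4 higher and 3 lower without moxGFP replicate 2, where 37.3% of all genes were called. Between the strains, 3 (SSK1, OPY2 and PBS2) were lower with moxGFP and 0 higher (1 at an unadjusted p below 0.05, 0 by DESeq2, median −0.42). Over all genes tested, 7.07% were called lower and 7.48% higher. Without moxGFP replicate 2, 3 of the 20 were lower and 1 higher, where 21.8% of all genes were called.
Of 9 regulators of carbon source use and of the GUT genes, ADR1, an activator of GUT1, was called higher with EGFP (11.9 CPM in the vector control, 49.1 with EGFP and 16.9 with moxGFP on average; log2 fold change 2.05, SE 0.53, edgeR FDR = 0.0246), while GUT1 itself had −0.72. None of the 9 was called with moxGFP against vector in edgeR (0 higher and 1 lower at an unadjusted p below 0.05, and 0 and 1 by DESeq2) or between the strains (0 and 2 at an unadjusted p below 0.05, and 0 and 1 by DESeq2). In the fit to all libraries, 15.4%, 28.8% and 14.5% of all genes were called with EGFP, with moxGFP and between the strains. Without moxGFP replicate 2, 3 regulators were higher with EGFP, 2 were higher and 1 lower with moxGFP, and 2 were lower between the strains. That fit called 32%, 37.3% and 21.8% of all genes in these comparisons. The medians over all libraries were 0.66 with EGFP, 0.43 with moxGFP and −0.60 between the strains on the log2 scale.
Of 12 genes known to respond to osmotic stress, 6 were higher with EGFP and 0 lower, beside 7.60% and 7.76% of all genes (median log2 fold change 0.90). At an unadjusted p below 0.05 and by DESeq2, 0 were lower. Without moxGFP replicate 2, 7 of the 12 were higher and 1 lower, where 32% of all genes were called. Over all 9 libraries, 7 were lower with moxGFP than with EGFP and 0 higher, beside 7.07% and 7.48% of all genes (median −1.70). At an unadjusted p below 0.05 and by DESeq2, 0 were higher there. DDR2, CTT1 and HSP12, general stress genes, had the smallest FDR for EGFP against vector, followed by the trehalose 6-phosphate phosphatase gene TPS2 (log2 fold change 1.65, edgeR FDR = 0.0174). With moxGFP against vector 3 rose and 4 fell (median −0.02), beside 14.8% and 14.0% of all genes, among them TPS1, the trehalose 6-phosphate synthase gene (−1.49, edgeR FDR = 0.00803). Genes of synthesis GPD1 and GPP2, also known as targets of osmotic stress, were lower with moxGFP while DDR2 was higher (3.63, edgeR FDR = 0.000699).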

How the data were processed

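RNA of 9 libraries, 3 per strain, was sequenced in paired ends from TruSeq Stranded Total RNA libraries. The authors checked reads with FastP, aligned them with HISAT2 2.2.0, formatted them with SAMtools 1.11, counted with StringTie and tested with edgeR 3.28.1 (versions from the submitters' processing notes), and deposited raw counts per gene without normalization; build, annotation and strand setting are not given in the sources used here. Groups and replicate numbers come from the labels.

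The 7128 gene rows without the 92 spike-ins were filtered by filterByExpr, scaled by TMM and fitted over all 9 libraries without a replicate block by edgeR 4.0.16's quasi-likelihood test (R 4.3.3), and genes were called at an FDR below 0.05 (Benjamini-Hochberg, over the 6338 genes that passed). Standard errors are the log2 fold change over the square root of F, and intervals are 95%. Members and lists were chosen with earlier results of these data known; all 9 members are named, and up to 5 called genes per list, by FDR. For each member the 1 named gene with the highest Pearson r was taken. DESeq2 1.42.0, other scalings, filters and subsets of libraries were tried as alternatives. Names and sequences come from RefSeq R64 by locus tag (9 of 9 matched), with no coordinates given; pairs were compared with BLAST 2.17.0 and Biopython 1.88. Intervals of counts cover counting error only. Replicates are biological, per the labels.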

Additional observations from a re-analysis of the deposited data

Results flagged for a closer look

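The effects of the overexpressed GFPs on 5 glycerol genes differed by the test of the difference itself, which is the comparison of moxGFP with EGFP in edgeR's fit. As moxGFP effect minus EGFP effect on the log2 scale, the difference was −2.50 for GUT2 (edgeR FDR = 0.00751), −2.05 for GPD1 (edgeR FDR = 0.0129), −1.95 for GCY1 (edgeR FDR = 0.005), −1.02 for GUT1 (edgeR FDR = 0.0385) and −0.92 for FPS1 (edgeR FDR = 0.0458). For GCY1 the EGFP libraries lay above the vector control and moxGFP overlapped it, while for GPD1 and GUT2 moxGFP lay below the vector control and EGFP overlapped it. GUT1 was lowest with moxGFP and between the others with EGFP. Of the 9 fits that left out a library, none called the difference for FPS1, 3 called that for GUT1 and 8 that for GPD1 (edgeR FDR = 0.0683 without EGFP replicate 2), while all 9 called those for GUT2 and GCY1.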

How the results depend on the processing

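With all genes fitted under each alternative, the number of the 9 glycerol genes called for EGFP against vector (1) was 2 with DESeq2's size factors, with DESeq2's Wald test and with at least 10 counts in every library, 4 in a fit to the 2 groups compared, and 1 to 4 when a library was left out. For moxGFP against vector (4) it was 1 (GUT1) with library sizes alone and 3 to 5 without a library. With library sizes alone, GPD1, GPP2 and GUT2 were not called in that comparison (edgeR FDR = 0.112, 0.171 and 0.0997). For moxGFP against EGFP (5) the number was 2 (GUT2 and GCY1) with library sizes alone and in a fit to the 2 groups compared. It was 2 to 4 there without a library. With ERCC totals in place of library sizes edgeR called 0 in each comparison, with 1, 3 and 3 at an unadjusted p below 0.05, beside 0.331, 0.442 and 0.0631% of all genes. Shares of the spike-ins in a library ran from 0.144 to 0.405%, both ends in the vector control. With library sizes alone the all-gene median moved on the log2 scale to 0.53 (EGFP against vector) and −0.47 (between the strains), and 70.4% and 13% of all calls were higher, against 49.5% and 51.4%. With ERCC totals 33.3% and 39.3% of calls with EGFP and moxGFP against vector were higher, against 49.5% and 51.4%. Over all genes, 974, 1824 and 922 calls in the 3 comparisons became 115, 248 and 146 with library sizes alone, 21, 28 and 4 with ERCC totals, 1953, 1214 and 245 with 2 groups, and, between the strains, 1452 with the Wald test and 595 with the replicate block. They ran from 274 to 2049, 750 to 2388 and 101 to 1394 without a library, lowest without vector replicate 1 (both comparisons with the vector control) and EGFP replicate 2 (between the strains), and highest without moxGFP replicate 2. No called change reversed its sign. Of values near 0, GCY1 with moxGFP against vector turned to −0.037 (DESeq2's size factors and Wald test), −0.019 (library sizes alone), −0.0021 (at least 10 counts) and −0.0024 (2 groups), and ran from −0.18 to 0.19 without a library. STL1 between the strains turned to 0.014, 0.018 and 0.0062 (DESeq2's size factors, Wald test and 2 groups) and ran from −0.59 to 0.27 without a library, and with EGFP it was 0.045 with library sizes alone. With the spike-ins GPD1 with EGFP was −0.026 and GPD2 between the strains 0.0015, and without a library they ran from −0.025 to 0.17 and from −0.88 to 0.34. GPP1 with moxGFP against vector ran from −0.24 to 0.088 without a library. The cause of these shifts was not tested. No label says that replicate numbers pair libraries. Deviations from the group means correlated by −0.022 on average for the 9 pairs with the same number (range −0.326 to 0.232) and by 0.011 for the 18 others. With 3 libraries per group these averages cannot decide whether libraries were paired. With the replicate number as a block, 1, 4 and 4 of the 9 genes were called, and FPS1 between the strains was not (log2 fold change −0.91, edgeR FDR = 0.0877). The block changed no other call of the 9. Depth limits moxGFP replicate 2, where 7 of the 9 genes had under 100 counts.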
